A study of Homo sapiens with 21 samples.

Results

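Potassium channel genes were described here in A673 cells, a human Ewing sarcoma line whose tumour-driving protein is the fusion EWS/FLI. Members were the rows whose symbol is KCN followed by letters and a closing number, which names pore-forming potassium channel subunits and their auxiliary subunits and leaves out antisense genes and pseudogenes. The rule gave 94 genes among 57820 rows. Of these, 57 had a deposited log2 level of at least 3.32, which is 10 on the linear scale, in 3 or more of the 21 RNA-seq libraries, and so were tested together with 18040 genes in all.

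All 21 libraries came from A673 cells that carried a stably selected RNAi construct and, from 4 days of selection onwards, a second retroviral vector. Delta 22 libraries (n = 4) had RNAi against EWS/FLI and the delta 22 mutant of the fusion, and mut9 libraries (n = 3) had the same RNAi and the mut9 mutant. Wild-type rescue libraries (n = 5) had the same RNAi and full-length type IV EWS/FLI. Knockdown libraries (n = 5) had the same RNAi and an empty vector, and control libraries (n = 4) had an RNAi against luciferase and an empty vector. A rescue here is the return of a form of the fusion to cells in which the endogenous one was knocked down, so each rescue was set against knockdown, and the mutants against the wild-type rescue. The labels describe 1 cell line and do not say that the libraries came from separate cultures, so p-values measure the spread between these libraries, which may be technical. The values are not scaled to gene length, so levels are compared between groups and not between genes.

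Potassium channels let potassium ions cross the membrane along their gradient and thereby set the resting potential, end action potentials and shape cell volume. Voltage-gated channels open on depolarisation, calcium- or sodium-activated channels open when those ions rise inside the cell, inward rectifiers pass current best near and below the resting potential, and 2-pore-domain channels carry leak currents. Auxiliary subunits bind the pore-forming subunits and change their gating, trafficking or sensitivity. EWS/FLI joins part of EWS to the DNA-binding domain of the ETS factor FLI1, which binds sequences with a GGAA core.

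FLI1, which holds the DNA-binding part of the fusion, checked the labels first. Its log2 level was 9.67, 9.84, 9.99, 9.59 and 9.76 in knockdown libraries, against 11.69, 11.61, 11.56 and 11.68 in control libraries, a difference of -1.87 ± 0.10 (SE; limma adjusted p = 4.7e-12). The level lay between 10.99 and 11.51 in delta 22 libraries, between 10.10 and 10.39 in mut9 libraries and between 10.35 and 10.69 in wild-type rescue libraries, each range above that of the knockdown. A FLI1 read can come from the endogenous fusion, from a rescue vector or from FLI1 itself, and the files do not separate them. Of 7 Ewing sarcoma genes checked, FLI1 among them, 6 reached the level. Their linear levels summed to 3806.1 to 8068.3 in knockdown libraries and 36766.1 to 37768.1 in control libraries. The sums were 5367.1 to 7019.8 in delta 22, 33943.2 to 41607.7 in mut9 and 27887.4 to 40647.1 in wild-type rescue libraries. CD99 was listed at 0 in every library, which is not read here as a measured level. The linear levels of 12 measured markers of other cell types, of which 4 or 5 reached the level in a group, summed to 92.9 to 148.8 in knockdown libraries and 67.5 to 80.4 in control libraries. The muscle gene DES and the macrophage gene CD68 rose after knockdown, by 2.03 ± 0.30 and 1.28 ± 0.21 (adjusted p = 5.15e-06 and 1.57e-05). The intestinal keratin KRT20 fell by 0.94 ± 0.24 (adjusted p = 0.00145), and the endothelial CDH5 and the leukocyte PTPRC were not called, at -0.06 and 0.18. DES reached the level in no control library and KRT20 in no knockdown library, so the direction of both was partly set by the filter. ALB, CD3E, EPCAM, KRT5, MYOD1 and MYOG stayed below the level in all groups, and the part of these markers in the results below was not tested.

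After EWS/FLI knockdown, 24 of the 57 tested genes rose and 23 fell. Across all genes tested, 69.5% were called either way, 35.5% higher and 34% lower, against 82.5% of the 57 called either way. The median absolute log2 difference was 1.30 over the 57 members and 0.50 over all genes tested, and the median signed difference was 0.05 and -0.01. Of the members, 19 were called and at least 2-fold higher and 14 called and at least 2-fold lower, where the same rules took 17.7% and 8.53% of all genes. A gene was called at a limma adjusted p below 0.05, with adjustment over all genes tested. In 38 of the 57 members the knockdown and control libraries did not overlap, as in 59.4% of all genes tested. In bulk RNA, fewer cells of a type and less RNA per cell cannot be told apart. KCNH1, KCNJ15, KCNK1, KCNK2 and KCNMB2 reached the level in no control library, and genes such as KCNG2, KCNH4, KCNMB1 and KCNV2 in no knockdown library. Where such a gene was called, its direction and any lack of overlap were partly set by the filter. KCNG2 and KCNV2 were not called in this comparison.

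**Figure D1:**
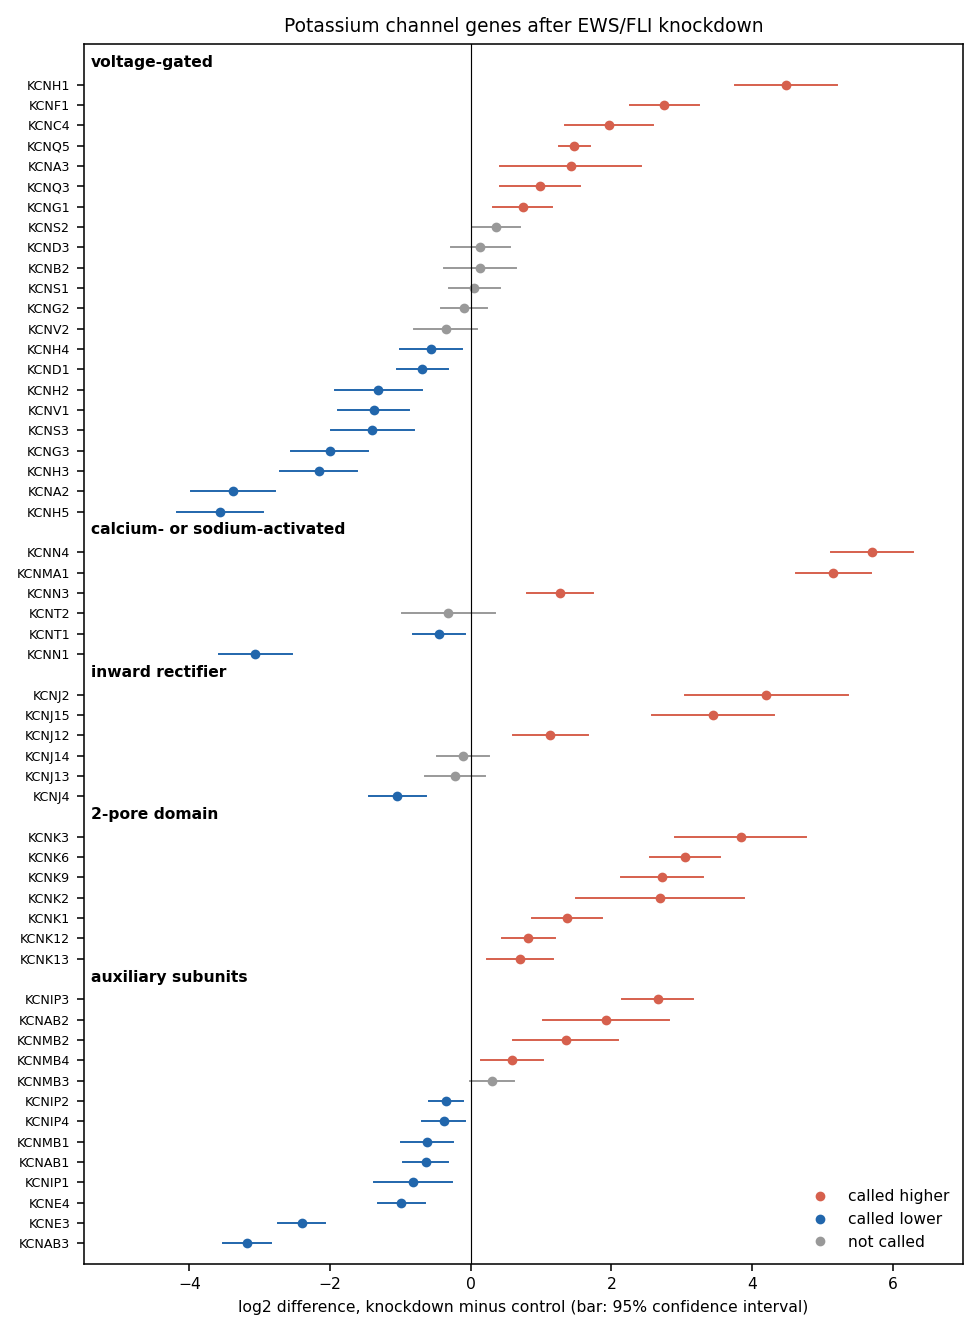
Log2 difference, knockdown minus control, for 54 of the 57 tested members by class, with points as estimates, bars as 95% confidence intervals and colours for genes called higher, called lower or not called. The 7 2-pore-domain genes all lie right of 0, and the voltage-gated and auxiliary genes lie on both sides, from KCNH1 at 4.49 to KCNH5 at -3.56.

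Among calcium- and sodium-activated channels, 3 of 6 tested genes rose and 2 fell. KCNN4 encodes the intermediate-conductance calcium-activated channel. Its log2 level was 10.25, 10.37, 9.63, 9.33 and 8.76 in knockdown libraries, against 4.05, 3.72, 4.14 and 3.94 in control libraries. Every knockdown library lay above every control library, and the difference of 5.71 ± 0.28 (SE), or 52.2-fold, was the largest rise of any member (adjusted p = 1.69e-12). KCNMA1, the pore of the large-conductance BK channel, had 12.57, 12.52, 12.27, 11.93 and 12.39 in knockdown libraries, against 7.03, 7.25, 7.28 and 7.17 in control libraries. These groups did not overlap either, with a difference of 5.15 ± 0.26 (adjusted p = 2.03e-12). An antisense gene, KCNMA1-AS1, shares exon sequence with KCNMA1 and reached at most 4.97, and whether the authors' counting used strand is not given in the sources used here. KCNN1, a small-conductance relative of KCNN4, moved the other way. Its level was 7.42, 8.03, 8.87, 7.45 and 8.12 in knockdown libraries, against 10.88, 10.92, 11.10 and 11.27 in control libraries. The groups were apart, and KCNN1 fell by 3.06 ± 0.25 (adjusted p = 1.52e-09). KCNN3, the third tested gene of that family, rose by 1.27 ± 0.22 (adjusted p = 4.5e-05). The sodium-activated KCNT1 differed by -0.45 ± 0.18 (adjusted p = 0.0289) with overlapping groups. It was uncalled at -0.30 without control replicate 1, and also without knockdown replicate 2 or 3. KCNT2 was not called at -0.32, with a 95% interval from -0.98 to 0.34.

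The largest rise and the largest fall among members were KCNN4 and KCNH5, so their upstream sequences are shown as RefSeq gives them on GRCh38.p14, while the counts behind the levels were made on hg19. Each line holds the 250 bases before the annotated start, 5′ to 3′ on the gene's strand, with GGAA and its reverse complement TTCC in capitals.
KCNN4 chr19:43780974-43781223, minus strand: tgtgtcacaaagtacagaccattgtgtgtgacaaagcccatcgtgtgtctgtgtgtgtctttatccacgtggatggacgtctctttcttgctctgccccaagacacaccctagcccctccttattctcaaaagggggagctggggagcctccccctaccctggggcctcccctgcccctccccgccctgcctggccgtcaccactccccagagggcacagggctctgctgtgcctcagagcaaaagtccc
KCNH5 chr14:63045459-63045708, minus strand: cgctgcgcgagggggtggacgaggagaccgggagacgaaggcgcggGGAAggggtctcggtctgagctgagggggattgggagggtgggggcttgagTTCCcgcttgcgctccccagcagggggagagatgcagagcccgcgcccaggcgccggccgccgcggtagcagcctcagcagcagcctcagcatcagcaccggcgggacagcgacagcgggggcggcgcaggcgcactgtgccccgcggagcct
The KCNN4 window holds no GGAA and no TTCC, and the KCNH5 window holds 1 of each. Over windows from 250 bases before to 50 bases after a start, GGAA on either strand was in 91.2% of the 68 windows of tested members and in 95.5% of the 35116 windows of all genes. Of the 57 tested members, 41 matched a window. Tandem GGAAGGAA on either strand, which contains GGAA, was in 3 of the 68 windows (4.41%) and in 3.67% of all windows. The 3 windows belong to KCNMB2, KCNIP1 and KCNK6, shown here as 60 bases around the tandem copy in capitals.
KCNMB2 chr3:178536232-178536291, plus strand: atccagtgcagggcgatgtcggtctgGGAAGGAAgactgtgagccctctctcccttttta
KCNIP1 chr5:170353348-170353407, plus strand: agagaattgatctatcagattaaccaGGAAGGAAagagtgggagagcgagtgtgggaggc
KCNK6 chr19:38319624-38319683, plus strand: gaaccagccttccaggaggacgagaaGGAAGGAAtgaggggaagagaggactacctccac
Counted from the start, the copies begin at -178 in KCNMB2, -113 in KCNIP1 and -195 in KCNK6. After knockdown KCNMB2 and KCNK6 rose and KCNIP1 fell. A run of 3 GGAA copies was in none of the 68 windows and in 0.085% of all windows, and CCGGAAGT on either strand, which contains GGAA, was in none and in 4.14%. These matches describe letters in a window and not binding.

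Voltage-gated channels were the largest class, with 25 of 40 members tested, of which 7 rose and 12 fell. The shares of 35.5% and 34% over all genes stand beside the counts of every class after knockdown. The ether-a-go-go family held both. KCNH1, its founding member, had log2 levels of 7.78, 7.85, 7.68, 6.92 and 7.42 in knockdown libraries, against 3.07, 3.07, 3.00 and 3.04 in control libraries. The control libraries were all below the tested level and the difference was 4.49 ± 0.35 (adjusted p = 9.12e-10). KCNH5, a close relative of KCNH1, had 5.37, 5.78, 7.01, 5.25 and 5.61 in knockdown libraries, against 9.67, 9.33, 9.29 and 9.17 in control libraries. No libraries overlapped, and KCNH5 fell by 3.56 ± 0.29, the largest fall of any member (adjusted p = 1.95e-09). KCNH3, a neuronal member, had 4.89, 5.32, 5.74, 5.76 and 5.45 in knockdown libraries, against 6.73, 7.86, 7.97 and 7.82 in control libraries. Control replicate 1 lay below the other control libraries and still above all knockdown libraries, and KCNH3 fell by 2.16 ± 0.26 (adjusted p = 4.26e-07). KCNH3 shares 14 exon bases with MCRS1, which is on the other strand. KCNH2, which encodes the cardiac hERG channel, fell by 1.31 ± 0.30 (adjusted p = 0.000594), and KCNH4 fell by 0.56 ± 0.21 (adjusted p = 0.0229) with overlapping groups and was uncalled without control replicate 3 or 5 or knockdown replicate 2.

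The Shaker-type KCNA2, a low-threshold delayed rectifier of neurons, had 5.69, 6.48, 7.49, 6.88 and 6.54 in knockdown libraries, against 10.20, 9.90, 10.02 and 9.84 in control libraries. The groups stood apart, and KCNA2 fell by 3.38 ± 0.29 (adjusted p = 3.06e-09). KCNA3, best known from lymphocytes, lies next to KCNA2 on chromosome 1 in the RefSeq gene order and moved up, with 4.10, 6.74, 6.89, 6.24 and 6.13 in knockdown libraries, against 4.03, 4.63, 4.71 and 5.01 in control libraries. Knockdown replicate 1 lay among the control libraries and the other 4 above them, and the difference was 1.42 ± 0.48 (adjusted p = 0.0127). Among the KCNQ genes, subunits of the M-current and related currents, KCNQ5 rose by 1.47 ± 0.11 (adjusted p = 3.36e-10). KCNQ3, an M-current subunit, rose by 0.99 ± 0.27 (adjusted p = 0.00327), a call that quantile scaling of the libraries did not keep, at 0.63 (adjusted p = 0.0549). Of the KCNC genes, which give fast-repolarising currents, KCNC4 rose by 1.97 ± 0.30 (adjusted p = 8.16e-06).

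Subunits that do not form channels alone but modify KCNB channels made up a further set of tested voltage-gated genes. KCNF1 had 6.94, 7.66, 7.02, 6.99 and 7.34 in knockdown libraries, against 4.46, 4.46, 4.98 and 3.83 in control libraries. It rose by 2.75 ± 0.23 with no overlap (adjusted p = 2.83e-09). KCNG3 had 4.24, 4.87, 5.20, 5.39 and 5.48 in knockdown libraries, against 6.76, 7.04, 7.29 and 7.08 in control libraries. All knockdown libraries were lower, and KCNG3 fell by 2.01 ± 0.26 (adjusted p = 1.26e-06). KCNS3 fell by 1.40 ± 0.28 and KCNV1 by 1.38 ± 0.24 (adjusted p = 0.000189 and 4.52e-05), while KCNG1 rose by 0.74 ± 0.20 (adjusted p = 0.00268). KCNB2 itself, their pore-forming partner, differed by 0.13, with an interval from -0.38 to 0.65, and was not called. The A-type gene KCND1 fell by 0.69 ± 0.17 (adjusted p = 0.00146). KCND3, KCNG2, KCNS1, KCNS2 and KCNV2 were not called, with differences between -0.36 and 0.35. KCNV2 was called lower with quantile scaling, at -0.59, with array weights, at -0.45, and with the compared groups alone (adjusted p = 0.0125, 0.0307 and 0.0459). KCNS2 was called higher without control replicate 2 or 5 or knockdown replicate 2 (adjusted p = 0.0428, 0.038 and 0.0487).

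All 7 tested genes of the 2-pore-domain class, of 15 members, rose, where 35.5% of all genes were called higher. KCNK1 was at the level in 3 knockdown libraries, 1 delta 22 library and no control library, and KCNK2 in no control library, so the direction of both was partly set by the filter. KCNK3, an acid-sensitive background channel, had log2 levels of 9.02, 9.43, 7.65, 7.80 and 8.22 in knockdown libraries, against 4.85, 4.17, 4.80 and 4.52 in control libraries. The groups were well apart, and the difference was 3.83 ± 0.45 (adjusted p = 2.5e-07). KCNK9, its nearest relative, rose by 2.72 ± 0.28 (adjusted p = 4.78e-08). KCNK6 had 6.55, 6.91, 6.05, 5.90 and 6.60 in knockdown libraries, against 3.09, 3.53, 3.03 and 3.76 in control libraries. It rose by 3.05 ± 0.24, again without overlap (adjusted p = 1.02e-09). KCNK2, a stretch-activated channel, had 7.01, 5.21, 3.64, 4.67 and 3.77 in knockdown libraries, against 2.12, 2.12, 2.17 and 2.28 in control libraries. Its knockdown libraries spread widely and all lay above the control libraries, and the difference was 2.69 ± 0.57 (adjusted p = 0.00033). KCNK1 rose by 1.37 ± 0.24, KCNK12 by 0.82 ± 0.18 and KCNK13 by 0.70 ± 0.22 (adjusted p = 3.86e-05, 0.000492 and 0.00866). Within batches 3 to 5 alone, KCNK13 was at 0.51 and uncalled (adjusted p = 0.11).

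Of the inward rectifiers, 6 of 15 were tested, and 3 rose and 1 fell. KCNJ2, the classical strong inward rectifier of muscle and heart, had 8.33, 8.09, 6.75, 6.65 and 8.95 in knockdown libraries, against 3.54, 3.54, 3.52 and 3.61 in control libraries. The control libraries were nearly level, at the low end of the values of KCNJ2, and the knockdown libraries spread over more than 2 log2 units. The difference was 4.20 ± 0.56 (adjusted p = 1.34e-06). Whether such near-equal low values are a floor of the deposited values was not tested, so the size of the difference is uncertain. The same holds for the control libraries of KCNH1 and KCNK2. KCNJ15 had 6.93, 6.43, 6.04, 5.31 and 5.00 in knockdown libraries, against 2.26, 2.26, 2.64 and 2.83 in control libraries. The groups were apart by 3.44 ± 0.42 (adjusted p = 4.22e-07). The lowest control values of KCNJ15 were also near-equal, so the size of this difference is uncertain too. KCNJ12, which has near-identical copies in the genome and is therefore uncertain, rose by 1.13 ± 0.25 (adjusted p = 0.000508), and KCNJ4 fell by 1.04 ± 0.19 (adjusted p = 7.12e-05). KCNJ13 and KCNJ14 were not called, with differences of -0.22 and -0.11, and each shares exons with a more highly listed gene, GIGYF2 or GRWD1. With quantile scaling both were called lower, KCNJ13 at -0.51 and KCNJ14 at -0.49 (adjusted p = 0.0206 and 0.0201).

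Auxiliary subunits split as well, with 4 of 13 tested genes higher and 8 lower. KCNAB3, a beta subunit of Shaker-type channels, had 4.88, 4.65, 4.99, 4.94 and 5.24 in knockdown libraries, against 8.07, 8.18, 7.94 and 8.29 in control libraries. The libraries of each group lay close together, and KCNAB3 fell by 3.18 ± 0.16 (adjusted p = 3.07e-12). KCNAB2, another beta subunit, rose by 1.93 ± 0.43 (adjusted p = 0.000487), and KCNAB1 fell by 0.64 ± 0.15 (adjusted p = 0.000918); KCNAB2 shares exon sequence with NPHP4, and KCNAB1 with AC084036.1, both on the other strand. KCNE3, a single-span partner of KCNQ channels, had 9.89, 9.93, 10.71, 9.88 and 9.92 in knockdown libraries, against 12.37, 12.53, 12.70 and 12.26 in control libraries. Replicate 3 was the highest knockdown library and still below all control libraries, and KCNE3 fell by 2.40 ± 0.16 (adjusted p = 9.19e-11). KCNE4 fell by 0.99 ± 0.16 (adjusted p = 1.56e-05). Of the calcium-binding KCNIP genes, KCNIP3 rose by 2.66 ± 0.24 (adjusted p = 7.92e-09) and KCNIP1 fell by 0.82 ± 0.27 (adjusted p = 0.0102). KCNIP2 and KCNIP4 fell by 0.35 ± 0.12 and 0.38 ± 0.15 (adjusted p = 0.0111 and 0.0254). Within batches 3 to 5 alone KCNIP1, KCNIP2 and KCNIP4 were uncalled, at -0.67, -0.20 and -0.36, and KCNIP4 was also uncalled without control replicate 5 or knockdown replicate 1 or 4.

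The BK channel's beta subunits did not follow its pore as a group. KCNMB2 rose by 1.35 ± 0.36 and KCNMB4 by 0.59 ± 0.21 (adjusted p = 0.00241 and 0.0183), the second of which was uncalled with quantile scaling, at 0.22, within batches 3 to 5, at 0.57, and without knockdown replicate 4, at 0.45. KCNMB1, which lies next to KCNIP1 on chromosome 5, fell by 0.62 ± 0.18 (adjusted p = 0.00434). KCNMB3 differed by 0.31, with an interval from just below 0 to 0.62, and shares long exon stretches with PIK3CA. It was called higher, at 0.40, without knockdown replicate 2 (adjusted p = 0.0222). Within batches 3 to 5 alone, KCNMB2 was at 0.79 (adjusted p = 0.0165) in place of 1.35.

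**Figure D2:**
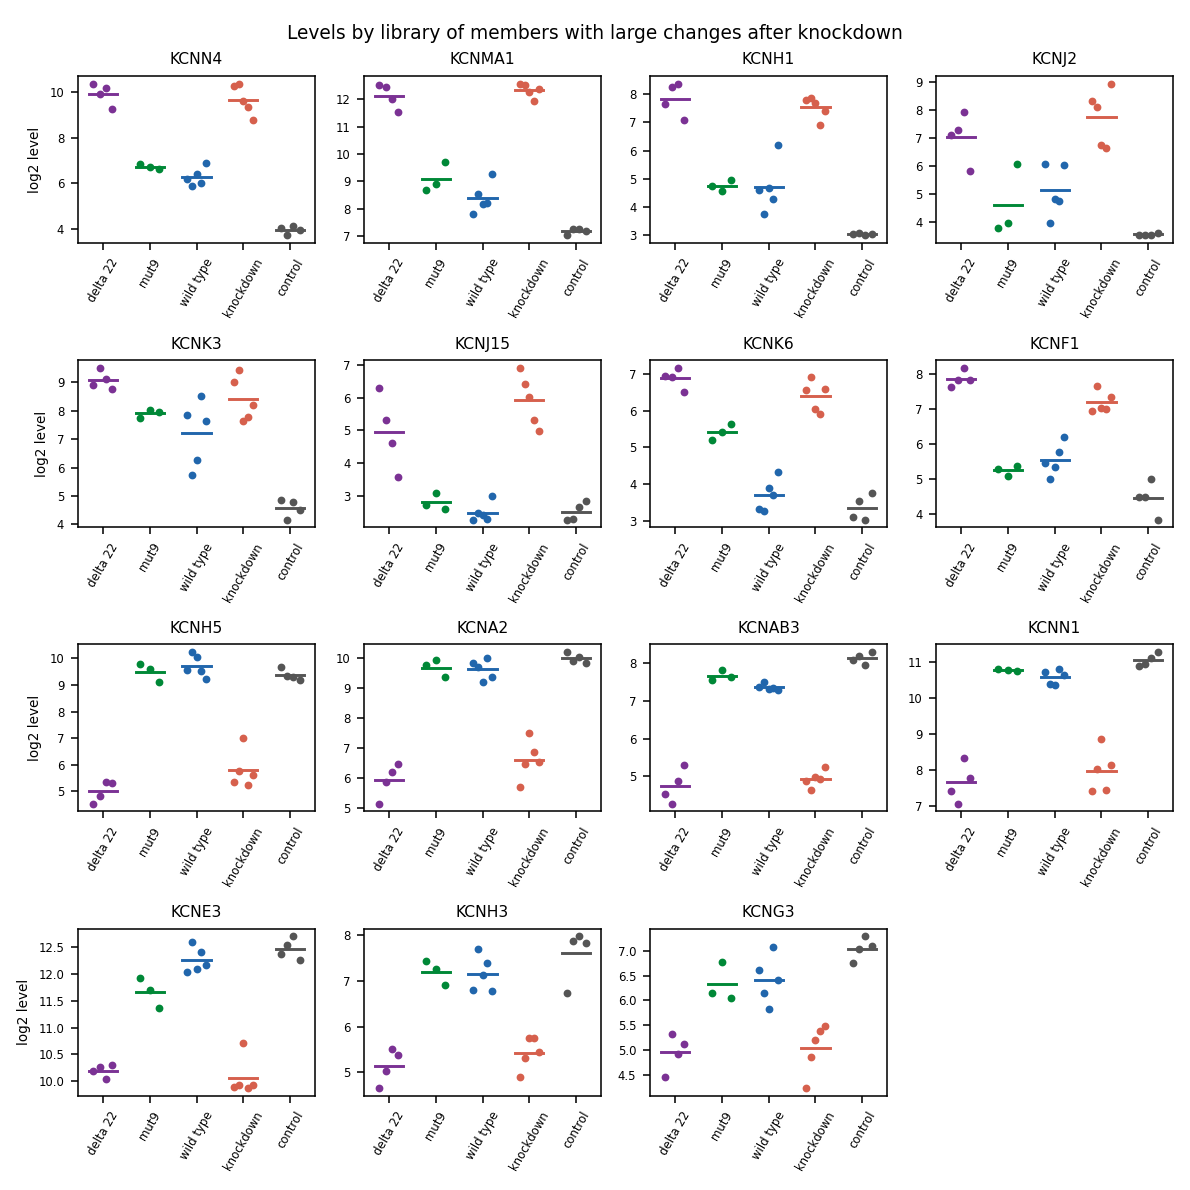
Deposited log2 level by library in the 5 groups for 15 members with large changes after knockdown, 8 that rose and 7 that fell; each point is a library and each bar a group mean. For KCNN4, the delta 22 libraries lie with the knockdown libraries, between 9.25 and 10.36, and the mut9 and wild-type rescue libraries lie between them and the control libraries.

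The wild-type rescue was set against the same knockdown libraries, so its differences share them with the knockdown comparison and are given as values of their own. It put 29 of 57 tested members higher and 19 lower, where 29.6% and 32.3% of all genes tested were called higher and lower. The median signed log2 difference was 0.38 over the members and 0.01 over all genes. KCNH5 was at 9.56, 10.23, 10.04, 9.51 and 9.23 in wild-type rescue libraries, against 5.25 to 7.01 in knockdown libraries. These groups did not overlap, and the difference was 3.91 ± 0.28, or 15.0-fold (adjusted p = 5.03e-10). KCNA2 had 9.84, 9.71, 9.21, 9.99 and 9.36 in wild-type rescue libraries, against 5.69 to 7.49 in knockdown libraries, and KCNN1 had 10.70, 10.37, 10.35, 10.79 and 10.62, against 7.42 to 8.87. Both rose without overlap, by 3.01 ± 0.27 and 2.59 ± 0.23 (adjusted p = 1.24e-08 and 1.29e-08). On the other side, KCNMA1 had 7.79, 8.55, 8.17, 8.21 and 9.29 in wild-type rescue libraries, against 11.93 to 12.57 in knockdown libraries. It fell by 3.93 ± 0.24 (adjusted p = 1.02e-10). KCNJ15 fell by 3.47 ± 0.39 to between 2.26 and 2.98 (adjusted p = 2.89e-07), and KCNN4 fell by 3.39 ± 0.26 to between 5.90 and 6.87 (adjusted p = 2.02e-09). KCNJ15 reached the level in no wild-type rescue library, so its direction was partly set by the filter. Its lowest wild-type rescue values were near-equal to its lowest control values, so the size of its fall is uncertain.

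By class, the wild-type rescue put 14 voltage-gated genes higher and 5 lower, and 9 auxiliary genes higher and 3 lower. Some of these higher genes, such as KCNH4, KCNG2 and KCNMB1, reached the level in no knockdown library, so their direction was partly set by the filter. Of the 2-pore-domain genes, 1 was higher and 6 were lower. Across all genes tested, 29.6% were called higher and 32.3% lower in this comparison. Among the lower ones, KCNK1 and KCNK2 reached the level in no wild-type rescue library, so the direction of both was partly set by the filter. The 2-pore-domain gene that was higher was KCNK13. Its level was 5.34, 4.47, 5.04, 4.64 and 5.20 in wild-type rescue libraries, against 4.14, 4.22, 3.73, 3.48 and 3.32 in knockdown libraries. The libraries did not overlap, with a difference of 1.16 ± 0.21 (adjusted p = 8.38e-05). KCNMB4 differed by 1.07 ± 0.20 (adjusted p = 0.000111). KCNK3 had 7.86, 5.73, 6.28, 8.51 and 7.65 in wild-type rescue libraries and fell by 1.22 ± 0.42 (adjusted p = 0.017). Within batches 3 to 5 its difference was -0.41 (adjusted p = 0.45), and the call was also lost without knockdown replicate 2 or without wild-type rescue replicate 2 or 3. KCNMB2 fell by 0.88 ± 0.34 (adjusted p = 0.03), and was uncalled at -0.39 within batches 3 to 5, at -0.57 without knockdown replicate 1, and without knockdown replicate 2 or wild-type rescue replicate 1, 3 or 4. KCNMB3 fell by 0.34 ± 0.14 (adjusted p = 0.0428), but with the labelled batch as a block its adjusted p was 0.0513, and leaving out any 1 library except knockdown replicate 2 or wild-type rescue replicate 3 ended the call. KCNK9 fell by 0.81 ± 0.26 (adjusted p = 0.0119) and was uncalled at -0.57 within batches 3 to 5.

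**Figure D3:**
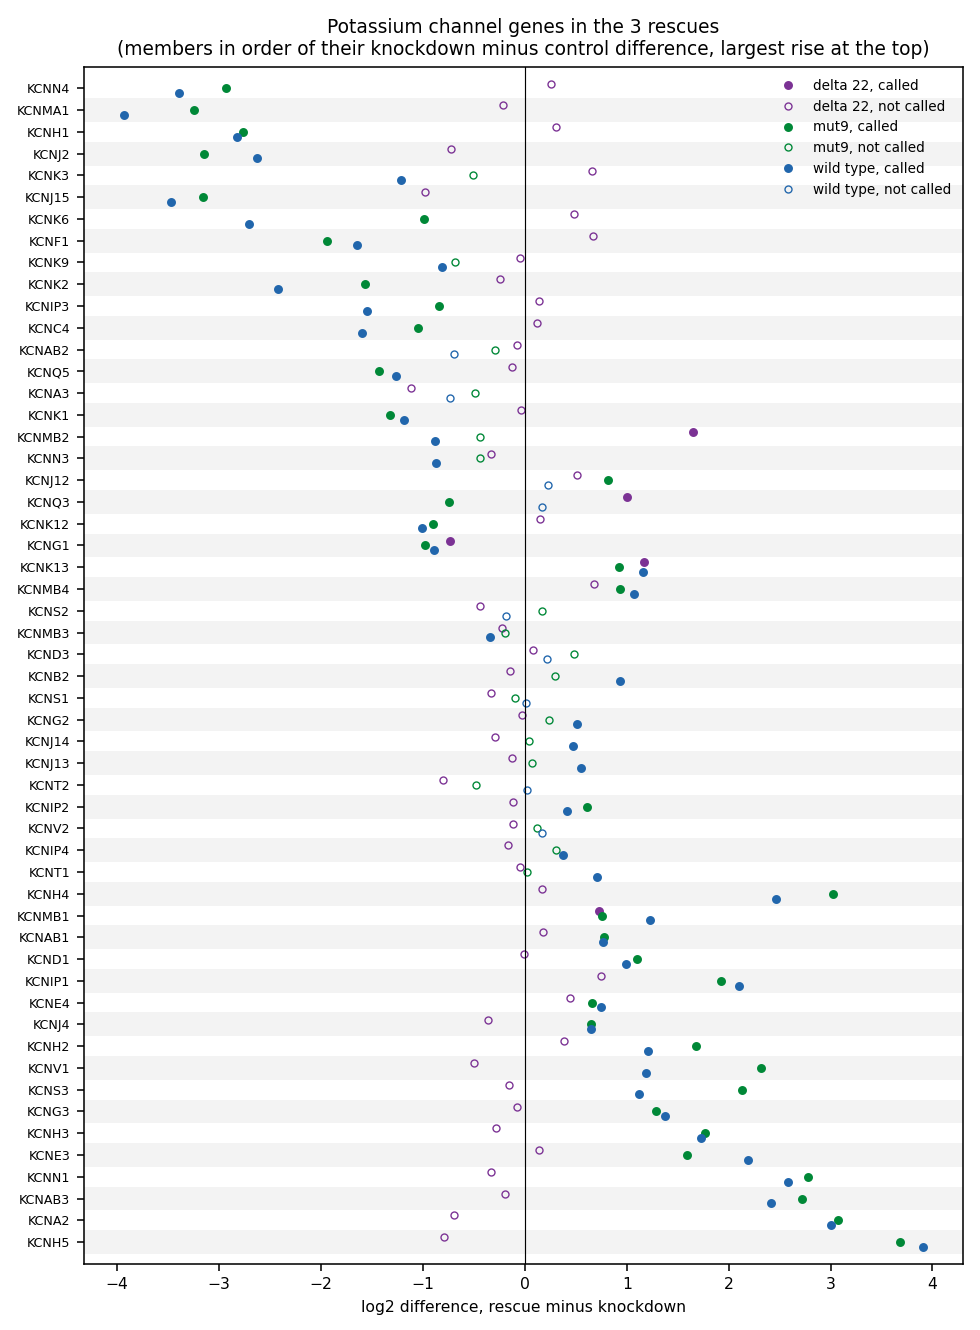
Log2 difference of each rescue minus knockdown for 54 of the 57 tested members, ordered by their knockdown minus control difference with the largest rise at the top; filled points are called and open points are not. The delta 22 points stay between -1.12 and 1.65, and mut9 and wild type run from KCNMA1 on the left at -3.25 and -3.93 to KCNH5 on the right at 3.68 and 3.91.

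The delta 22 rescue called 4 of 57 tested members higher and 1 lower against knockdown, where 2.24% and 2.26% of all genes were called higher and lower. KCNN4 and KCNH5 were not among them. KCNN4 was at 10.36, 9.93, 10.17 and 9.25 in delta 22 libraries, against 8.76 to 10.37 in knockdown libraries. The groups overlapped, with a difference of 0.26 ± 0.28 (adjusted p = 0.675). KCNH5 was at 4.54, 4.84, 5.37 and 5.31 in delta 22 libraries, against 5.25 to 7.01 in knockdown libraries, a difference of -0.79 ± 0.29 that was not called (adjusted p = 0.13). The 4 higher genes were KCNMB2, KCNK13, KCNQ3 and KCNMB1. KCNMB2 had 6.23, 6.46, 5.24 and 5.04 in delta 22 libraries, against 5.35, 4.59, 3.55, 3.68 and 3.30 in knockdown libraries. The highest knockdown library lay within the delta 22 range, and the difference was 1.65 ± 0.36 (adjusted p = 0.0126). KCNK13 had 5.26, 5.06, 4.75 and 4.72 in delta 22 libraries, above the 3.32 to 4.22 of the knockdown libraries, and rose by 1.17 ± 0.22 (adjusted p = 0.0057). KCNQ3 rose by 1.00 ± 0.27 (adjusted p = 0.0401), with delta 22 replicate 1 at 8.04 and the other 3 between 6.97 and 7.05. KCNMB1 rose by 0.73 ± 0.18 (adjusted p = 0.0223), but it reached the level in no knockdown library, so its direction was partly set by the filter. KCNG1 had 8.39, 8.54, 9.21 and 8.37 in delta 22 libraries, against 9.11 to 9.67 in knockdown libraries, and fell by 0.73 ± 0.20 (adjusted p = 0.0405).

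Most of these 5 calls depended on single libraries. Without delta 22 replicate 1, KCNQ3 was at 0.75 (adjusted p = 0.161), and its call also ended without delta 22 replicate 2 or 4 or knockdown replicate 2, 3, 4 or 5. KCNG1 lost its call without delta 22 replicate 1, 2 or 4 or knockdown replicate 2, 3 or 5, and KCNMB1 without delta 22 replicate 4 or knockdown replicate 5. KCNMB2 had adjusted p = 0.0539 without delta 22 replicate 1 and 0.0505 without replicate 2. With the 2 groups alone in the fit, KCNMB2 had adjusted p = 0.102. KCNK13 kept its call with every single library left out and lost it in batches 3 to 5 alone (adjusted p = 0.0818). With the labelled batch as a block, 6 members were higher and 3 lower in place of 4 and 1.

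Mut9 against knockdown called 22 members higher and 15 lower, where 23% and 25.5% of all genes were called higher and lower. Mut9 libraries exist in batches 3 to 5 only. KCNH5 was at 9.77, 9.58 and 9.10 in mut9 libraries, against 5.25 to 7.01 in knockdown libraries, and rose by 3.68 ± 0.32 (adjusted p = 2.29e-08). KCNA2 was at 9.77, 9.92 and 9.37 in mut9 libraries, and rose by 3.07 ± 0.31 (adjusted p = 1.72e-07). KCNH4 was at 5.96, 5.95 and 5.97 in mut9 libraries, against 2.67 to 3.25 in knockdown libraries. None of these libraries overlapped, and KCNH4 rose by 3.02 ± 0.23 (adjusted p = 4.59e-09). KCNH4 reached the level in no knockdown library, so its direction and the lack of overlap were partly set by the filter. KCNMA1 was at 8.68, 8.89 and 9.70 in mut9 libraries, against 11.93 to 12.57 in knockdown libraries, and fell by 3.25 ± 0.28 (adjusted p = 2.25e-08). KCNJ15 fell by 3.15 ± 0.45 to between 2.59 and 3.06 (adjusted p = 1.19e-05). KCNJ15 reached the level in no mut9 library, so its direction was also partly set by the filter. KCNJ2 had 3.79, 3.94 and 6.09 in mut9 libraries, against 6.65 to 8.95 in knockdown libraries, and fell by 3.15 ± 0.60 (adjusted p = 0.000258). One of the 3 mut9 libraries was well above the others and still below the knockdown. KCNK2 fell by 1.57 ± 0.62 (adjusted p = 0.0439), but with the labelled batch as a block the difference was -1.22 and uncalled (adjusted p = 0.0899), and without knockdown replicate 1 the difference was -1.03 and uncalled (adjusted p = 0.111). Leaving out knockdown replicate 2 or 4 or any mut9 library also ended that call.

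Mut9 and the wild-type rescue were set against each other directly. Of the 57 members, 3 were called higher in mut9 and 3 lower, where 11.2% and 7.61% of all genes were called higher and lower. KCNK6 had 5.19, 5.42 and 5.63 in mut9 libraries, against 3.32, 3.26, 3.89, 3.71 and 4.33 in wild-type rescue libraries. All mut9 libraries were above all wild-type rescue libraries, and the difference was 1.71 ± 0.26 (adjusted p = 0.000258). KCNV1, a silent modifier subunit, had 6.99, 7.22 and 6.73 in mut9 libraries, against 5.57, 6.13, 5.88, 6.24 and 5.43 in wild-type rescue libraries. It was higher by 1.13 ± 0.27 with no overlap (adjusted p = 0.00618). KCNS3 had 9.78, 9.88 and 9.28 in mut9 libraries, against 8.25, 9.09, 8.81, 8.93 and 8.14 in wild-type rescue libraries. It was higher by 1.01 ± 0.31 (adjusted p = 0.0277) and lost the call without mut9 replicate 3 or 4 or without wild-type rescue replicate 1 or 5.

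On the lower side, KCNQ3 was at 5.58, 5.74 and 5.25 in mut9 libraries, against 6.90, 6.41, 6.38, 5.83 and 6.66 in wild-type rescue libraries. The difference was -0.91 ± 0.30 (adjusted p = 0.0376), and leaving out any 1 mut9 library, or wild-type rescue replicate 1, 2 or 5, ended the call. KCNT1 was at 3.64, 3.87 and 4.14 in mut9 libraries, against 4.35 to 4.73 in wild-type rescue libraries, lower by -0.69 ± 0.19 (adjusted p = 0.0163) and uncalled without mut9 replicate 3 or 4. KCNE3 was at 11.92, 11.70 and 11.37 in mut9 libraries, against 12.04 to 12.59 in wild-type rescue libraries, a difference of -0.60 ± 0.17 (adjusted p = 0.0206) that was uncalled without mut9 replicate 4 or 5 and within batches 3 to 5 (adjusted p = 0.126). For some members that moved most after knockdown the intervals include 0 but are wide, such as -0.89 to 0.43 for KCNH5 and -1.79 to 0.74 for KCNJ2. The interval for KCNN4, from -0.18 to 1.09, lies mostly above 0.

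**Figure D4:**
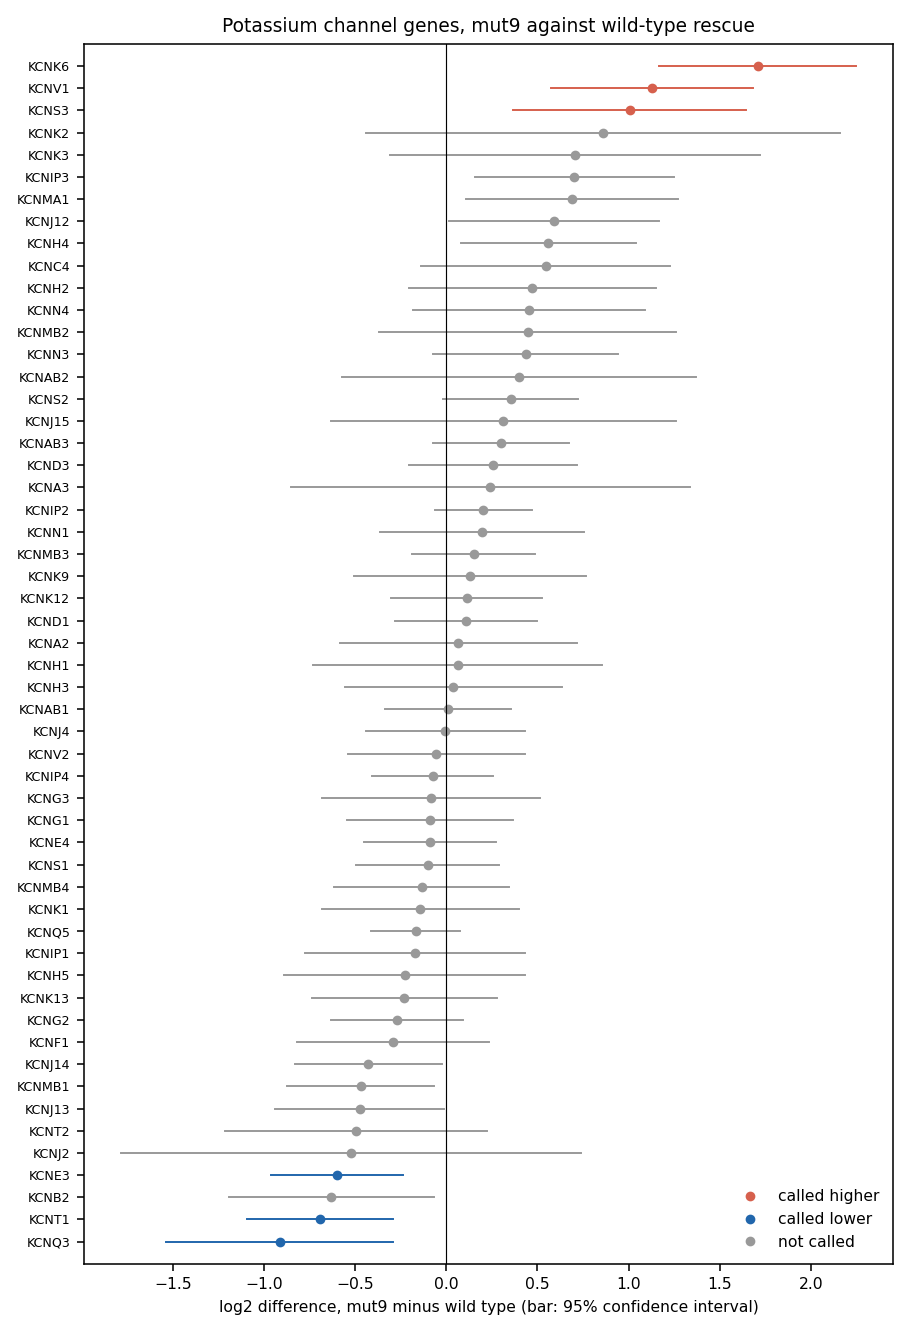
Log2 difference, mut9 minus wild-type rescue, for 54 of the 57 tested members in order of size, with 95% confidence intervals as bars and colours for genes called higher, called lower or not called. KCNK6 at 1.71, KCNV1 at 1.13 and KCNS3 at 1.01 stand at the top and KCNQ3 at -0.91 at the bottom, and most other intervals include 0.

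Delta 22 against the wild-type rescue called 18 members higher and 27 lower, where 31.7% and 29.5% of all genes were called higher and lower. KCNMA1 was at 12.51, 12.46, 11.99 and 11.52 in delta 22 libraries, against 7.79 to 9.29 in wild-type rescue libraries, a difference of 3.72 ± 0.26 (adjusted p = 4.2e-10). KCNN4 differed by 3.65 ± 0.28 and KCNK6 by 3.19 ± 0.24 (adjusted p = 1.68e-09 and 1.22e-09). KCNH5 was at 4.54 to 5.37 in delta 22 libraries, against 9.23 to 10.23 in wild-type rescue libraries, lower by -4.70 ± 0.29 (adjusted p = 1.28e-10). KCNA2 and KCNN1 were lower by -3.70 ± 0.29 and -2.91 ± 0.25 (adjusted p = 1.76e-09 and 5.83e-09). All 6 of these genes had groups that did not overlap. They were named for the largest called differences, and the share of all genes without overlap is not given here for this comparison. Of the 7 2-pore-domain genes, 6 were higher in delta 22 and none lower, with KCNK13 at 0.01 ± 0.22 the exception. KCNK1 and KCNK2 reached the level in no wild-type rescue library, so the direction of both was partly set by the filter. KCNK9, at 0.76 ± 0.28, was uncalled with quantile scaling, within batches 3 to 5, and without delta 22 replicate 2 or 3 or wild-type rescue replicate 2 or 3.

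The wild-type rescue was last set against the control, whose cells kept their own EWS/FLI. Of the members, 18 were higher and 2 lower, where 21.3% and 18.3% of all genes were called higher and lower. Quantile scaling gave 16 and 7, and the labelled batch as a block gave 19 and 5. KCNK3 was at 5.73 to 8.51 in wild-type rescue libraries, against 4.17 to 4.85 in control libraries, higher by 2.62 ± 0.45 (adjusted p = 0.000142). KCNN4 was at 5.90 to 6.87 in wild-type rescue libraries, against 3.72 to 4.14 in control libraries, higher by 2.32 ± 0.28 (adjusted p = 3.88e-06). KCNK9 was higher by 1.91 ± 0.28 (adjusted p = 3.12e-05). All 3 had groups that did not overlap, but they were named for the largest called rises, and the share over all genes is not given here. KCNAB3 was lower by -0.76 ± 0.16 (adjusted p = 0.00115). KCNH4 was at 4.85 to 5.79 in wild-type rescue libraries, against 3.02 to 4.05 in control libraries, higher by 1.90 ± 0.21 (adjusted p = 1.45e-06). KCNJ2 differed by 1.58 ± 0.56 (adjusted p = 0.0297), a call that ended without any 1 control library or wild-type rescue replicate 1 or 5. KCNAB2 differed by 1.24 ± 0.43 (adjusted p = 0.0272), a call that ended without control replicate 1 or 5 or wild-type rescue replicate 2, 4 or 5.

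Other genes that carry or regulate potassium transport, such as pumps, cotransporters, pacemaker channels and sulphonylurea receptors, were taken as a list of 36, of which 22 reached the level. After knockdown, 12 were higher and 7 lower, where 35.5% and 34% of all genes were called higher and lower. ABCC9, the regulatory sulphonylurea receptor of ATP-sensitive channels, rose by 3.78 ± 0.40 (adjusted p = 6.68e-08), the largest rise of the list. ABCC9 reached the level in no control library, with control values from 2.63 to 3.23, so its direction may have been partly set by the filter. FXYD5, which modulates the sodium pump, rose by 3.11 ± 0.17 (adjusted p = 9.92e-12). The pacemaker channel HCN2 rose by 2.17 ± 0.18 and HCN3 fell by 1.11 ± 0.16 (adjusted p = 2.7e-09 and 3.61e-06). Delta 22 against knockdown called 2 of the 22, both lower, where 2.24% and 2.26% of all genes were called higher and lower. The 2 were ABCC9, lower by -1.88 ± 0.40 and SLC12A4, a potassium-chloride cotransporter, lower by -0.36 ± 0.08 (adjusted p = 0.0104 and 0.017).

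The 37 members below the level had at most 2 libraries at it in 5 cases and none in 32. KCNV2, just inside, reached it in 3 libraries with a highest value of 3.61, and KCNU1, just outside, in 2 knockdown libraries with a highest value of 3.46. KCNK16 and KCNG4 were among the 17358 rows of the series listed at 0 in every library. Other rows went down to -4.1, so a 0 throughout is not read here as a level above theirs. KCNQ1, the channel of the slow cardiac repolarising current, had a highest value of -2.75.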

How the data were processed

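RNA-seq was measured in 21 A673 libraries. The authors deposited 1 table of log2 values per gene and library; per the submitters' processing notes, bcl2fastq, STAR 2.5.2b, HTSeq and DESeq2 were used with hg19, and which transformation gave the log2 values is not given in the sources used here. Read depth per library cannot be had from these values; 16708 to 17326 genes reached the level per library. Differences were fitted here with limma 3.58.1 in R 4.3.3 (empirical Bayes with trend, 1 mean per group over all 21 libraries, Benjamini-Hochberg over 18040 genes, called below 0.05, 2-sided). Fold changes are on the deposited log2 scale. No pseudocount was added. The fit was tested on simulated data. Values in every library were given for the members with the largest called differences (8 each way after knockdown, up to 3 each way elsewhere), and other members mostly by their differences; per-library values of further members, and FXYD5, HCN2 and HCN3, were added after their values were seen. Members and lists were chosen with earlier results of these data known. The labels give a batch number; over 34 pairs of libraries of different groups with the same number, deviations from group means correlated at 0.203 on average, against -0.049 for other pairs, and 24 pairs were above 0.1. No 2 libraries were identical (highest correlation 0.9978). Alternatives were a stricter or no filter, quantile or trimmed-mean scaling, the replicate block, array weights, the compared groups alone, batches 3 to 5, and each library left out. Exon overlaps come from GENCODE 29. Protein sequences were not analysed here. Some genes are not reported here by name, in the text or the figures, and stay in the counts.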

Additional observations from a re-analysis of the deposited data

Results flagged for a closer look

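In each group of 4 or 5 libraries, the gap between an extreme library and its nearest neighbour was set against the group's range with Dixon's 95% limits. Of 228 groups examined, 16 (7.02%) held a library that stood apart, where chance gives about 1 in 20.

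Some of these libraries touch calls given above. KCNA3 was 4.10 in knockdown replicate 1, against 6.13 to 6.89 in the others, and KCNQ3 was 8.04 in delta 22 replicate 1, against 6.97 to 7.05. KCNE3 was 10.71 in knockdown replicate 3, against 9.88 to 9.93, and KCNE4 was 12.77 in the same library, against 11.81 to 12.07. KCNH3 was 6.73 in control replicate 1, against 7.82 to 7.97, KCNT1 was 4.76 there, against 4.14 to 4.20, and KCNS2 was 3.20 there, against 3.89 to 4.00. KCNC4 was 3.6 in control replicate 2, against 4.72 to 4.81.

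The rest were single values. KCNG2 was 2.43 in knockdown replicate 4, against 3.04 to 3.25, KCNK12 was 6.11 in knockdown replicate 2, against 5.32 to 5.48, and KCNS1 was 4.10 in knockdown replicate 1, against 3.56 to 3.68. KCNJ15 was 2.98 in wild-type rescue replicate 5, against 2.26 to 2.46. In delta 22 libraries, KCNJ13 was 3.78 in replicate 2, against 4.36 to 4.46, KCNK1 was 4.40 in replicate 3, against 2.92 to 3.04, KCNMB4 was 9.33 in replicate 4, against 8.64 to 8.75, and KCNQ5 was 11.29 in replicate 4, against 11.49 to 11.50.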

How the results depend on the processing

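No called difference of a member turned its sign under any alternative. Of 218 member results examined, 208 were called, and 52 lost the call under at least 1 alternative, 10 with quantile scaling, 2 with the replicate block (KCNMB3 and KCNK2, given above) and 34 with 1 library left out; the block ended no other of these calls. Quantile scaling moved the median of all genes by -0.202 after knockdown and 0.12 for the wild-type rescue.

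With a mean of at least log2(100) required, 17 members stayed in the fit and the counts higher and lower were 10 and 7 for knockdown against control, 8 and 7 for wild type against knockdown, 0 and 1 for delta 22 against knockdown, 9 and 4 for mut9 against knockdown, 7 and 0 for wild type against control, 1 and 1 for mut9 against wild type, and 6 and 6 for delta 22 against wild type; fewer genes were in that fit. For delta 22 against knockdown the higher count was 2 with the compared groups alone and 1 within batches 3 to 5, and the lower count was 0 in both, 0 with quantile scaling and 3 with the replicate block. For wild type against control the lower count was 4 with no filter, 7 with quantile scaling, 5 with the replicate block and 4 with array weights. For mut9 against wild type the higher count was 5 with no filter and 6 with array weights. The cause of these shifts was not tested. The shares called over all genes in these alternative fits are not given here, so the counts cannot be weighed against them.

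With 1 library left out, the counts higher and lower ranged over 23 to 26 and 21 to 23 for knockdown against control, 27 to 29 and 17 to 19 for wild type against knockdown, 2 to 4 and 0 to 3 for delta 22 against knockdown, 20 to 23 and 12 to 16 for mut9 against knockdown, 15 to 18 and 2 to 3 for wild type against control, 2 to 5 and 0 to 3 for mut9 against wild type, and 16 to 17 and 24 to 28 for delta 22 against wild type. The delta 22 count against knockdown was 2 higher without delta 22 replicate 1, 2 or 4 or knockdown replicate 5, and 0 lower without delta 22 replicate 1, 2 or 4 or knockdown replicate 2, 3 or 5, and 3 lower without knockdown replicate 1. Mut9 against wild type gave 5 higher without wild-type rescue replicate 3, and 1, 0 and 1 lower without mut9 replicate 3, 4 and 5.

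Among uncalled members, 5 values gained a call with another setting and 4 with 1 library left out, for KCNJ13, KCNJ14, KCNV2, KCNS2 and KCNMB3, given above. Uncalled members that turned sign after knockdown were KCNB2 (-0.18 with quantile scaling), KCND3 (-0.12 with quantile scaling, -0.23 in batches 3 to 5), KCNMB3 (-0.061 with quantile scaling) and KCNS1 (-0.15 with quantile scaling, -0.052 in batches 3 to 5). With 1 library left out, KCNG2 ranged over -0.19 to 0.052 and turned positive without knockdown replicate 4 or control replicate 3, and KCNS1 ranged over -0.044 to 0.13 and turned negative without knockdown replicate 1 or control replicate 3.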
